A study of Mus musculus with 9 samples.

Results

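Sart1 and the core genes of oxygen sensing through the hypoxia-inducible factors were followed in mouse liver tissue: Sart1, the altered gene of the mutant animal, the factor subunits Hif1a, Epas1 and Arnt, and the oxygen-dependent regulators Vhl, Egln1, Egln2, Egln3 and Hif1an. The genes were chosen by name, with earlier results of these data already known, and every probe set annotated to 1 of these symbols alone was taken. These 9 of 18194 genes named on the array had 23 of its 45101 probe sets. Of them, 19 passed the filter on dim probe sets and were tested among 24140 probe sets in all, and the other 4 (1 of Hif1a, 2 of Arnt and 1 of Hif1an) lay below the 40th percentile on every array and were not tested. The study measured total RNA of 9 tissue pieces on 1-colour Affymetrix 3' expression arrays. Tumor was 3 pieces of a spontaneous hepatocellular carcinoma with severe steatosis from a SART1+/- mouse. Adjacent-labelled liver was 3 pieces of uninvolved liver, labelled adjacent, of the same mouse, diagnosed as cellular alteration with severe steatosis. Wild-type liver was 3 pieces of normal liver with mild steatosis from a wild-type mouse. Both animals were 12-month-old males of the C57Bl6 strain on regular chow without treatment. The labels do not describe how the Sart1 allele was made. Since each genotype is 1 animal, the spread between replicates is that between pieces of a liver or tumor, and genotype, animal and steatosis grade cannot be told apart.

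The hypoxia-inducible factors are dimers of an oxygen-labile alpha subunit, HIF-1 alpha (Hif1a) or HIF-2 alpha (Epas1), with the stable beta subunit Arnt. In the presence of oxygen the prolyl hydroxylases PHD2, PHD1 and PHD3, encoded by Egln1, Egln2 and Egln3, mark the alpha subunits for the Vhl ubiquitin ligase, and the asparaginyl hydroxylase FIH, encoded by Hif1an, blocks their transactivation. Regulation of the alpha subunits is thus largely at the protein level, which arrays do not measure, while Egln3 and Egln1 are themselves induced by the factors as negative feedback. The product of Sart1, which belongs to the spliceosome's tri-snRNP, is also known as hypoxia-associated factor. In human cells it promotes the degradation of HIF-1 alpha independently of oxygen and increases transactivation by HIF-2 alpha.

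The 250 bases upstream of an annotated start were available from RefSeq (GRCm38.p6) for 8 of the 9 genes, Epas1 being the other. The windows of the altered gene, of the alpha subunit Hif1a and of the 2 hydroxylases known as HIF-inducible are shown, since the results below turn on these genes. Each is written 5′ to 3′ on the gene's strand, and capitals mark the core of the HIF binding motif, ACGTG or GCGTG, on either strand. The Sart1 window is chr19:5388704-5388953 on the minus strand, that of Hif1a chr12:73907617-73907866 on the plus strand, that of Egln1 chr8:124949255-124949504 on the minus strand and that of Egln3 chr12:54203875-54204124 on the minus strand.
Sart1: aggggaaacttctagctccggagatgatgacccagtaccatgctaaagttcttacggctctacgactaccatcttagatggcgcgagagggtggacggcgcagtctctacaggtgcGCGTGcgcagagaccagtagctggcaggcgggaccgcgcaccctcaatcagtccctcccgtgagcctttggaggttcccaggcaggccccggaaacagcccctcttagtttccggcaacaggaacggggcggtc
Hif1a: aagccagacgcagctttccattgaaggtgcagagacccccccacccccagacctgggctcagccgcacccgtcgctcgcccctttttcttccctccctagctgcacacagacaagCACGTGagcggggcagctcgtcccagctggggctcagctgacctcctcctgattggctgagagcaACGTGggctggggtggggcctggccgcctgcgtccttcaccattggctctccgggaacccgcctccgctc
Egln1: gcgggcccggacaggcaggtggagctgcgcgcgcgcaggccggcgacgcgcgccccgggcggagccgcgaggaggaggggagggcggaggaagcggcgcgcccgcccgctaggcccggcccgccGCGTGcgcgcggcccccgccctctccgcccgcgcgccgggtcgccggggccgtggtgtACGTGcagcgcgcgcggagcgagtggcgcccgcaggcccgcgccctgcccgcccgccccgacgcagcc
Egln3: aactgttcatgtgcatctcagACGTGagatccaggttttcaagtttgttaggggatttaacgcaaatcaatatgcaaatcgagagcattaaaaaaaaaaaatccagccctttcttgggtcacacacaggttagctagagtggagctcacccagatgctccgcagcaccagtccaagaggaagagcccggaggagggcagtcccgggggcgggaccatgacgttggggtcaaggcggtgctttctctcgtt
The core occurred 1 time upstream of Sart1, 3 times upstream of Hif1a, 2 times upstream of Egln1 and 1 time upstream of Egln3. In the Hif1a window 2 of the 3 overlap in the palindrome CACGTG, which is read on both strands. The core occurred in 38.6% of all 32851 upstream windows of this length. Of the windows not shown, those of Egln2 held 1 and 4 matches and that of Arnt held 1, and no match was found in the Vhl and Hif1an windows. The Egln1 window was 86% G or C, beside a median of 52.4% over all windows. A match is a description of the letters and not a binding site.

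Values are the deposited log2 expression values, on which a difference of 1 is a 2-fold change. A probe set was called when its adjusted p in limma, corrected over all 24140 probe sets, was under 0.05. Within a group the arrays had pairwise r of 0.996 to 0.998 over all probe sets, and between groups 0.959 to 0.984. The 9 tested hepatocyte markers, which define the labelled tissue, averaged 12.21 to 12.30 on the log2 scale in the tumor arrays, 12.39 to 12.43 in adjacent-labelled and 12.86 to 12.89 in wild-type arrays. In tumor against wild-type liver Tat (-2.55), Cps1 (-1.37) and Ass1 (-1.07) fell most, while Ttr was at -0.31, Alb at 0.00 and Apoa1 at 0.15. The Ass1 probe set was dim, averaging 4.67 in tumor, 4.66 in adjacent-labelled and 5.74 in wild-type liver. Only its wild-type mean was above the arrays' 40th percentile (5.16 to 5.26). Changes were common over the whole array: tumor against wild-type liver gave a call for 61.1% of all tested probe sets, adjacent-labelled against wild-type liver for 60.9%, and tumor against adjacent-labelled liver for 43.6%. A call for 1 of these genes is therefore common on these arrays, and the sizes and directions carry the description below. Between tumor and wild-type liver 13 of the 19 tested probe sets of the 9 genes were called (68.4%), 7 as higher and 6 as lower, beside 32.4% higher and 28.7% lower of all. Between adjacent-labelled and wild-type liver 8 were called (42.1%), 6 higher and 2 lower, beside 31.9% and 28.9% of all. Between tumor and adjacent-labelled liver 14 were called (73.7%), 6 higher and 8 lower, beside 21.0% and 22.6% of all. In the same order, calls of at least 2-fold numbered 3, 0 and 2 of the 19, beside 12.0%, 10.7% and 4.72% of all, and the arrays of the 2 groups did not overlap for 14, 11 and 14 of the 19, beside 66.8%, 67.9% and 52.2% of all.

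**Figure D1:**
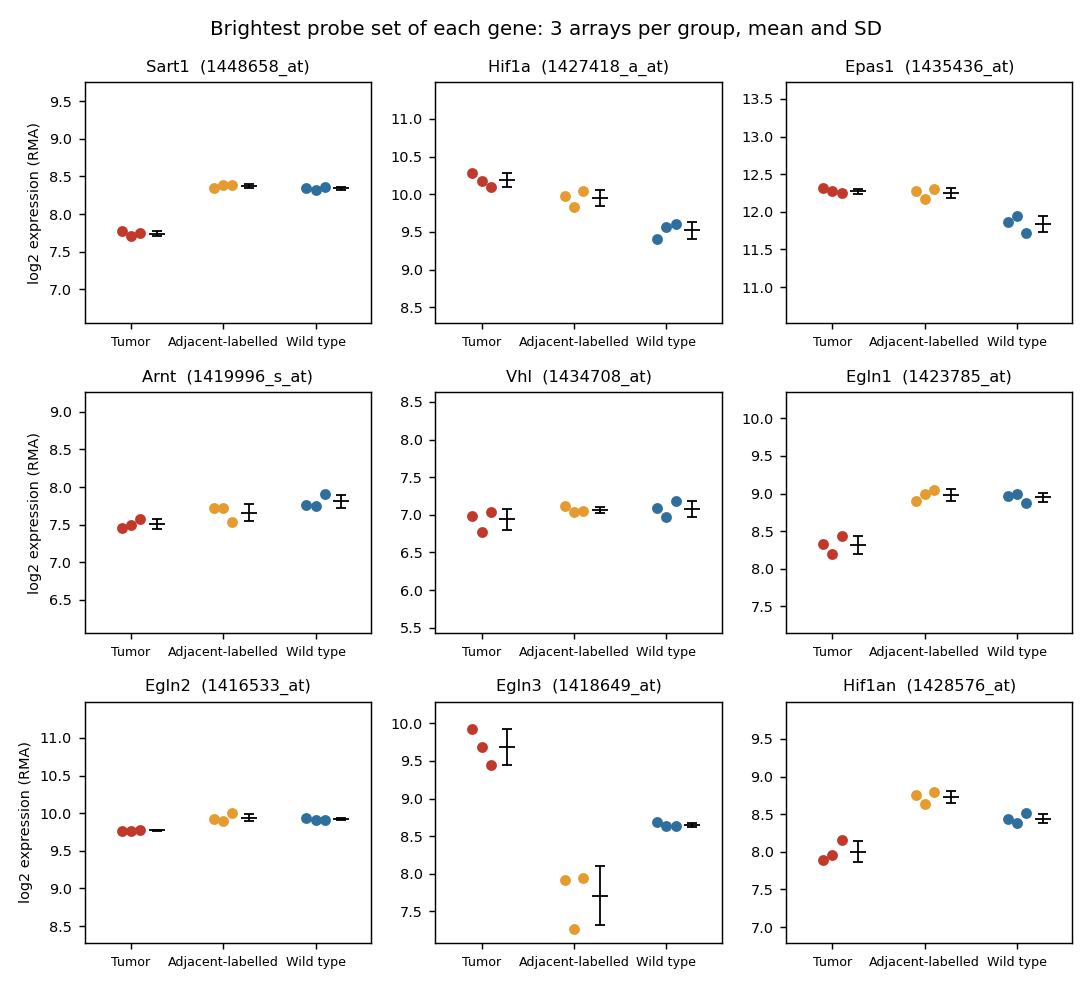
Log2 expression (y axis, each panel spanning the same range of log2 units) of the brightest probe set of each of the 9 genes on the 3 arrays of tumor, adjacent-labelled and wild-type liver; points are arrays, black marks the mean with its SD. Egln3 was highest in tumor (mean 9.69) and lowest in adjacent-labelled liver (7.71), while Sart1 and Egln1 were low in tumor alone.

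At its bright probe set Sart1 was lower in the tumor than in either other tissue. This probe set, 1448658_at, read 7.77, 7.71 and 7.75 in tumor, 8.34, 8.39 and 8.38 in adjacent-labelled liver, and 8.35, 8.32 and 8.36 in wild-type liver. All 3 tumor pieces lay below all 6 others, and the adjacent-labelled and wild-type values overlapped. The tumor level was 1.52-fold lower than in wild-type liver (-0.60 on the log2 scale, SE 0.05, adjusted p = 3.4e-06 in limma) and differed from adjacent-labelled liver by -0.63 (SE 0.05, adjusted p = 6.05e-06 in limma). Between adjacent-labelled and wild-type liver the difference was 0.03, with a 95% interval of -0.09 to 0.15, so this probe set did not show a lower level in the pieces labelled SART1+/- outside the tumor, which are called adjacent-labelled for that reason. The dim probe set 1442284_at, at the 46th percentile of the arrays on average, read 5.33, 5.53 and 5.28 in tumor, 5.57, 5.73 and 5.41 in adjacent-labelled liver and 5.65, 5.70 and 5.79 in wild-type liver. It too was below wild-type liver in tumor (-0.33, adjusted p = 0.0104 in limma). Its difference between adjacent-labelled and wild-type liver was -0.14 (95% interval -0.35 to 0.07), and between tumor and adjacent-labelled liver -0.19 (95% interval -0.40 to 0.02, adjusted p = 0.129 in limma, or -0.27 and 0.0445 without adjacent-labelled replicate 3). The sources used here do not give whether either probe set lies within the altered part of the gene.

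The tested genes flanking Sart1 on chromosome 19 were Eif1ad and Drap1. In tumor they differed from wild-type liver by -0.28 (adjusted p = 0.0112 in limma) and -0.37 (adjusted p = 0.000597 in limma), and from adjacent-labelled liver by -0.57 and -0.42. Both neighbours thus fell in the tumor together with Sart1. In adjacent-labelled against wild-type liver Eif1ad was higher by 0.29 (adjusted p = 0.0112 in limma) and Drap1 stood at 0.06 (adjusted p = 0.46 in limma). Among the 50 tested genes nearest to Sart1, the median difference of tumor from adjacent-labelled liver was -0.36, with 30 lower and 6 higher, and 20% of them had a lower difference than Sart1. Against wild-type liver the same 50 genes had a median of -0.09 in tumor, and 8% of them lay below Sart1. In adjacent-labelled against wild-type liver their median was 0.28, with 27 higher and 4 lower, and 24% of them lay below the 0.03 of Sart1.

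Hif1a was higher in the tumor, and at 2 of its 3 tested probe sets also in adjacent-labelled liver. The brightest probe set, 1427418_a_at, read 10.28, 10.18 and 10.10 in tumor, 9.98, 9.83 and 10.04 in adjacent-labelled liver and 9.40, 9.56 and 9.61 in wild-type liver, with no overlap between groups. Probe set 1448183_a_at read 7.29, 7.46 and 7.36 in tumor, 7.04, 6.99 and 7.04 in adjacent-labelled liver and 6.44, 6.42 and 6.63 in wild-type liver, in the same order and again without overlap. Tumor differed from wild-type liver by 0.66 (SE 0.08) at the first and 0.87 (SE 0.07) at the second, with adjusted p = 4.17e-05 and 1.79e-06 in limma. Adjacent-labelled liver differed from wild-type liver by 0.43 and 0.53 (adjusted p = 0.00108 and 0.000103 in limma). Probe set 1416035_at read 7.97, 7.75 and 7.61 in tumor, 7.43, 7.22 and 7.43 in adjacent-labelled liver and 7.31, 7.30 and 7.38 in wild-type liver. It separated the tumor from both other tissues, by 0.45 from wild-type liver (adjusted p = 0.00196 in limma) and by 0.42 from adjacent-labelled liver (adjusted p = 0.00461 in limma), but adjacent-labelled from wild-type liver by only 0.03 (95% interval -0.18 to 0.24). The step from adjacent-labelled liver to tumor was 0.35 at 1448183_a_at (adjusted p = 0.00272 in limma) and 0.23 at 1427418_a_at (adjusted p = 0.0404 in limma). The call at 1427418_a_at was lost without tumor replicate 1 or 2, adjacent-labelled replicate 1 or 2 or wild-type replicate 2, at differences of 0.17 to 0.25 and adjusted p = 0.0547 to 0.135 in limma. The remaining probe set, 1431981_at, stayed at 4.27 to 4.75 on all arrays, below the filter.

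Epas1, whose product HIF-2 alpha is prominent in endothelial cells and hepatocytes, was also higher in both tissues of the SART1+/- mouse. The bright probe set 1435436_at read 12.31, 12.27 and 12.25 in tumor, 12.27, 12.17 and 12.30 in adjacent-labelled liver and 11.87, 11.94 and 11.72 in wild-type liver. Tumor and adjacent-labelled values overlapped, and both lay above all wild-type values, by 0.43 (SE 0.07, adjusted p = 0.000326 in limma) and 0.40 (SE 0.07, adjusted p = 0.00055 in limma). Tumor minus adjacent-labelled liver was 0.03 (95% interval -0.13 to 0.18) at this probe set. At 1449888_at the 3 groups were apart, with 8.75, 8.91 and 8.96 in tumor, 8.41, 8.26 and 8.67 in adjacent-labelled liver and 7.85, 7.82 and 7.81 in wild-type liver. Here tumor was 2.06-fold above wild-type liver (1.04 on the log2 scale, SE 0.10, adjusted p = 4.69e-06 in limma), and adjacent-labelled liver was above it by 0.62 (adjusted p = 0.000281 in limma). Tumor exceeded adjacent-labelled liver by 0.42 (adjusted p = 0.00496 in limma). The 2 probe sets of Epas1 thus gave one direction against wild-type liver and unlike sizes.

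Whether the alpha subunits rose by unlike amounts was asked of the per-array difference, Hif1a minus Epas1, of the brightest probe sets. It averaged -2.09 ± 0.06 in tumor and -2.32 ± 0.19 in wild-type liver (SD, n = 3 each), a change of 0.23 with p = 0.2 in a two-sided exact permutation test that cannot go below 0.1. It averaged -2.29 ± 0.04 in adjacent-labelled liver (SD, n = 3), which gave p = 0.9 against wild-type liver and p = 0.1 for tumor against adjacent-labelled liver in the same exact test. Tumor minus adjacent-labelled liver was 0.21, with all 3 tumor values above all 3 adjacent-labelled values. With the mean of all tested probe sets of each gene, the change was 0.11 between tumor and adjacent-labelled liver, but -0.07 in place of 0.23 between tumor and wild-type liver. With a smallest p of 0.1, this exact test cannot settle whether the rises were unequal.

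Markers of other cell types differed between the same tissues, given here as the log2 of a list's summed level on each array. Of 12 tested macrophage markers, 8 were higher and 2 lower in tumor relative to wild-type liver, as in adjacent-labelled liver. Their sum was 14.28 to 14.57 in tumor, 14.37 to 14.52 in adjacent-labelled and 13.38 to 13.47 in wild-type arrays. Against wild-type liver Mpeg1 rose by 2.19 in tumor and 2.46 in adjacent-labelled liver. The 2 lower markers were Cd163, at -4.87 and -4.98, and Marco, at -0.50 and -1.11. Cd163 averaged 8.78 in wild-type liver, but 3.91 in tumor and 3.80 in adjacent-labelled liver, below the 40th percentile. Clec4f and Vsig4 were not called in any comparison. Of 10 stellate cell and fibroblast markers, 7 were higher and 1 lower in tumor, and 6 higher and 3 lower in adjacent-labelled liver. Their sums were 13.43 to 13.96 in tumor, 13.33 to 13.63 in adjacent-labelled and 12.68 to 13.17 in wild-type arrays. Against wild-type liver Col1a1 rose by 2.66 in tumor and 3.15 in adjacent-labelled liver, while Lrat was at -1.11 and -1.02. Des was not called in any comparison. Of 7 cholangiocyte markers 4 were higher and 0 lower in tumor, with sums of 12.87 to 12.99 in tumor, 12.43 to 12.56 in adjacent-labelled and 8.88 to 8.99 in wild-type arrays. The tetraspanin gene Tspan8, with means of 12.70 in tumor, 11.86 in adjacent-labelled and 4.66 in wild-type liver, made up most of the tumor sum, and Cldn7 stood at 9.16, 10.66 and 5.36. Cftr, also among the 4, averaged 4.44 in tumor and 3.98 in wild-type liver, both below the arrays' 40th percentile (5.16 to 5.26). It averaged 5.32 in adjacent-labelled liver, so its call in tumor compares 2 levels below the filter. The biliary markers Krt19, Krt7 and Epcam were not called in any comparison, with tumor minus wild-type liver at 0.31, 0.09 and 0.09. Of 15 endothelial markers, 4 were higher and 2 lower in tumor relative to wild-type liver, 5 were higher and 5 lower in adjacent-labelled relative to wild-type liver, and 0 were called between tumor and adjacent-labelled liver. Their sum was 12.70 to 12.98 in tumor, 12.68 to 12.80 in adjacent-labelled and 12.79 to 12.90 in wild-type arrays, ranges that all overlap. Single endothelial markers went both ways, such as Lyve1 at 1.89 and Tek at -0.95 in tumor against wild-type liver. Of the 9 hepatocyte markers, 1 was higher and 6 were lower in tumor, with sums of 16.64 to 16.68 in tumor, 16.66 to 16.69 in adjacent-labelled and 16.91 in every wild-type array. In such bulk tissue, more cells of a type and more RNA per cell cannot be told apart, and the part of cell makeup in the levels of Hif1a, Epas1 and the hydroxylases was not tested.

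**Figure D2:**
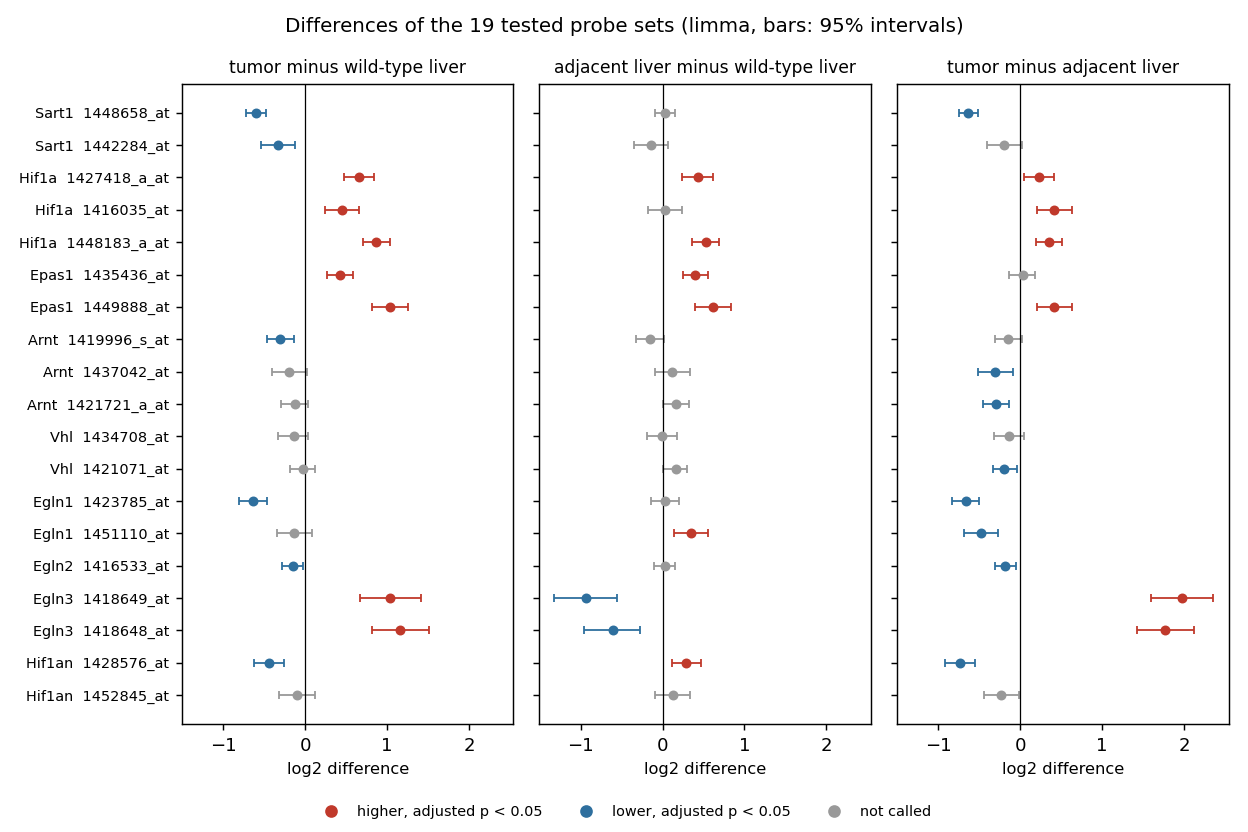
Log2 differences (x axis) of the 19 tested probe sets (rows) in the 3 comparisons, from limma over all 24140 tested probe sets; bars are 95% intervals, red and blue points passed an adjusted p of 0.05 as higher or lower, grey points did not. The largest differences were those of Egln3 between tumor and adjacent-labelled liver, 1.98 and 1.77.

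Arnt, the shared beta subunit, differed by at most 0.30 in either direction. Probe set 1419996_s_at read 7.45 to 7.58 in tumor, 7.53 to 7.72 in adjacent-labelled liver and 7.75 to 7.91 in wild-type liver, and was below wild-type liver in tumor (-0.30, adjusted p = 0.00576 in limma). The suffix of this probe set marks probes that may match more than 1 gene. The other tested probe sets did not separate tumor from wild-type liver, with -0.19 at 1437042_at (95% interval -0.40 to 0.02) and -0.12 at 1421721_a_at (95% interval -0.29 to 0.04). The first of these passed without tumor replicate 1, at -0.29 (adjusted p = 0.00968 in limma), and the second without tumor replicate 3, at -0.19 (adjusted p = 0.043 in limma). Both were lower in tumor than in adjacent-labelled liver, at -0.30 (adjusted p = 0.0236 in limma) and -0.29 (adjusted p = 0.00841 in limma). The call of 1437042_at was lost without tumor replicate 2 or 3 or adjacent-labelled replicate 2 or 3, at -0.30 to -0.20 and adjusted p = 0.0519 to 0.0844 in limma. No Arnt probe set was called between adjacent-labelled and wild-type liver, where the differences were -0.15, 0.12 and 0.16. At the last of these, 1421721_a_at, the adjusted p was 0.0761, and 0.0457 without tumor replicate 3, in limma. The 2 probe sets below the filter read 4.46 to 5.26.

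Vhl, the substrate receptor of the ubiquitin ligase, moved little. Probe set 1434708_at read 6.77 to 7.04 in tumor, 7.04 to 7.12 in adjacent-labelled liver and 6.97 to 7.18 in wild-type liver, and passed in no comparison. Tumor minus wild-type liver was -0.14 (95% interval -0.33 to 0.04), and adjacent-labelled minus wild-type liver -0.01 (95% interval -0.19 to 0.18). Probe set 1421071_at read 6.18 to 6.28 in tumor, 6.32 to 6.48 in adjacent-labelled liver and 6.20 to 6.33 in wild-type liver, and was lower in tumor than in adjacent-labelled liver (-0.19, adjusted p = 0.0407 in limma). The call went when tumor replicate 1 or 2 was left out, or adjacent-labelled replicate 2 or 3 or wild-type replicate 2, at -0.19 to -0.15 and adjusted p = 0.058 to 0.124 in limma. It was not called against wild-type liver, with -0.03 in tumor and 0.16 in adjacent-labelled liver, where the adjusted p was 0.0605, and 0.0389 without adjacent-labelled replicate 1, in limma.

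Egln1, which encodes PHD2, the main hydroxylase that sets normal HIF-1 alpha levels, was lower in the tumor. Probe set 1423785_at read 8.33, 8.19 and 8.43 in tumor, 8.90, 8.99 and 9.05 in adjacent-labelled liver and 8.97, 8.99 and 8.88 in wild-type liver. The tumor pieces lay below the 6 others, which overlapped. The tumor level was 1.55-fold lower than in wild-type liver (-0.63 on the log2 scale, SE 0.08, adjusted p = 3.17e-05 in limma) and differed by -0.66 from adjacent-labelled liver (adjusted p = 4.45e-05 in limma). Probe set 1451110_at read 6.94, 6.83 and 6.96 in tumor, 7.25, 7.30 and 7.63 in adjacent-labelled liver and 7.03, 7.08 and 7.02 in wild-type liver. Here the adjacent-labelled pieces stood highest, 0.35 above wild-type liver (adjusted p = 0.0076 in limma) with tumor below them (-0.48, adjusted p = 0.00166 in limma), and tumor minus wild-type liver was -0.13 (95% interval -0.34 to 0.08). Both probe sets thus placed tumor below adjacent-labelled liver but differed on wild-type liver. Egln2, which encodes PHD1, also moved little. Its probe set 1416533_at read 9.76, 9.76 and 9.78 in tumor, 9.92, 9.90 and 10.00 in adjacent-labelled liver and 9.93, 9.91 and 9.91 in wild-type liver, so that all tumor pieces lay below all others. Tumor differed by -0.15 from wild-type liver (adjusted p = 0.0349 in limma) and by -0.18 from adjacent-labelled liver (adjusted p = 0.024 in limma). The first call was lost without any one of the tumor or wild-type arrays or adjacent-labelled replicate 1, at -0.16 to -0.14 and adjusted p = 0.0509 to 0.0912 in limma, and the second without tumor replicate 1 or 2 or adjacent-labelled replicate 1 or 3, at -0.19 to -0.15 and adjusted p = 0.0503 to 0.0865 in limma.

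Egln3, which encodes PHD3 and is strongly HIF-inducible in many cell types, moved in opposite directions in the 2 tissues of the SART1+/- mouse. Probe set 1418649_at read 9.93, 9.69 and 9.45 in tumor, 7.92, 7.27 and 7.95 in adjacent-labelled liver and 8.69, 8.63 and 8.64 in wild-type liver. Probe set 1418648_at read 9.03, 8.65 and 8.54 in tumor, 6.96, 6.66 and 7.29 in adjacent-labelled liver and 7.63, 7.50 and 7.61 in wild-type liver. At both, every tumor piece lay above and every adjacent-labelled piece below all wild-type pieces. Tumor exceeded wild-type liver by 1.04 (SE 0.17, adjusted p = 0.000312 in limma) and 1.16 (SE 0.16, adjusted p = 7.16e-05 in limma), which is 2.06-fold and 2.24-fold. Adjacent-labelled liver differed from wild-type liver by -0.94 (adjusted p = 0.000682 in limma) and -0.61 (adjusted p = 0.006 in limma). Tumor minus adjacent-labelled liver was 1.98 (SE 0.17, adjusted p = 5.52e-06 in limma) and 1.77 (SE 0.16, adjusted p = 6.57e-06 in limma), or 3.95-fold and 3.42-fold. The spread was wider in the mutant animal's tissues than in wild-type liver, with an SD of 0.24 in tumor, 0.39 in adjacent-labelled liver and 0.03 in wild-type liver at 1418649_at (n = 3 each). Tumor and adjacent-labelled liver came from the same animal and share the diagnosis of severe steatosis. The part of steatosis in the Egln3 difference was not tested.

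Hif1an, which encodes the asparaginyl hydroxylase FIH, moved the opposite way from Egln3. Probe set 1428576_at read 7.89, 7.96 and 8.16 in tumor, 8.76, 8.64 and 8.79 in adjacent-labelled liver and 8.44, 8.38 and 8.51 in wild-type liver, 3 levels that did not overlap. Tumor differed from wild-type liver by -0.44 (SE 0.08, adjusted p = 0.000743 in limma) and adjacent-labelled liver by 0.29 (SE 0.08, adjusted p = 0.0105 in limma), which left -0.73 between tumor and adjacent-labelled liver (SE 0.08, adjusted p = 3.75e-05 in limma). The dimmer probe set 1452845_at read 5.85 to 6.16 in tumor, 6.14 to 6.41 in adjacent-labelled liver and averaged 6.12 ± 0.10 in wild-type liver (SD, n = 3), and was called in no comparison. Its difference between tumor and adjacent-labelled liver was -0.23 (adjusted p = 0.086, or -0.30 and 0.0427 without tumor replicate 1, in limma). The remaining probe set, 1447817_at, read 4.18 to 4.46, below the filter.

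**Figure D3:**
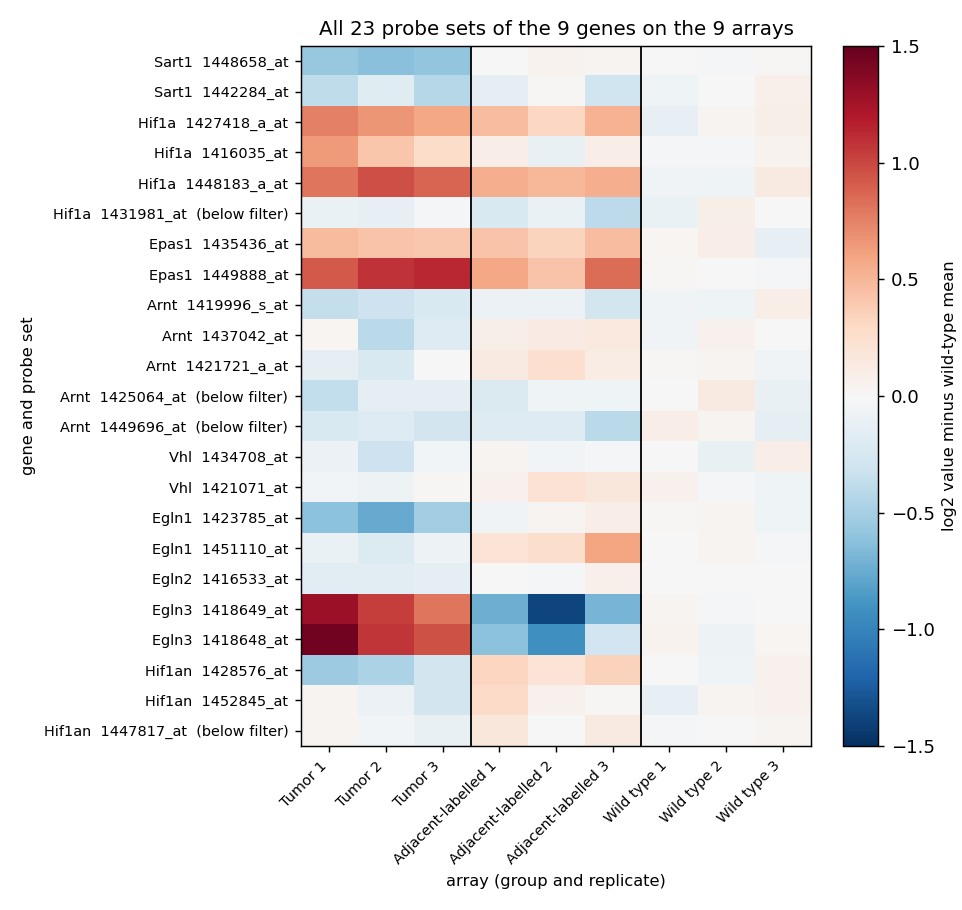
Log2 value minus the wild-type mean (colour, limited to 1.5 in either direction) of all 23 probe sets (rows) on the 9 arrays (columns, 3 each of tumor, adjacent-labelled and wild-type liver). The pair of Egln3 rows is red in tumor and blue in adjacent-labelled liver, and the Hif1a and Epas1 rows above the filter are red in tumor.

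Probes of RNA quality separated the tumor in part. For Actb the difference between 3' and 5' probe sets was 0.54 to 0.69 in tumor, 0.82 to 0.91 in adjacent-labelled liver and 0.83 to 0.88 in wild-type liver on the log2 scale, while that of Gapdh was 0.20 to 0.23 in tumor, 0.15 to 0.18 in adjacent-labelled liver and 0.26 to 0.29 in wild-type liver. Their part in the lower Sart1, Egln1 and Hif1an of the tumor was not tested.

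The genes that were lower in tumor than in adjacent-labelled liver at their brightest probe set lay in part on chromosomes whose genes were lower as a whole. Over 506 tested genes of chromosome 19, which holds Sart1 and Hif1an, the median difference of tumor from adjacent-labelled liver was -0.34. Over 737 genes of chromosome 8, which holds Egln1, it was also -0.34. These were the lowest medians of the 20 chromosomes, the highest being 0.25. Chromosome 12, with Hif1a and Egln3, stood at 0.15. At their brightest probe sets Sart1 (-0.63), Hif1an (-0.73) and Egln1 (-0.66) lay further from 0 than their chromosomes' medians. So did Egln3 (1.98) on chromosome 12. Of the other tested probe sets of the genes on chromosomes 8 and 19, Egln1 1451110_at (-0.48) did too. Sart1 1442284_at (-0.19) and Hif1an 1452845_at (-0.23) lay nearer 0 than the median. Many genes of any chromosome lie beyond its median, so this does not set these genes apart. In adjacent-labelled against wild-type liver chromosome 19 stood at 0.27 and chromosome 8 at 0.06, and in tumor against wild-type liver at -0.12 and -0.20. The part of such chromosome-wide shifts in the differences of single genes was not tested.

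**Figure D4:**
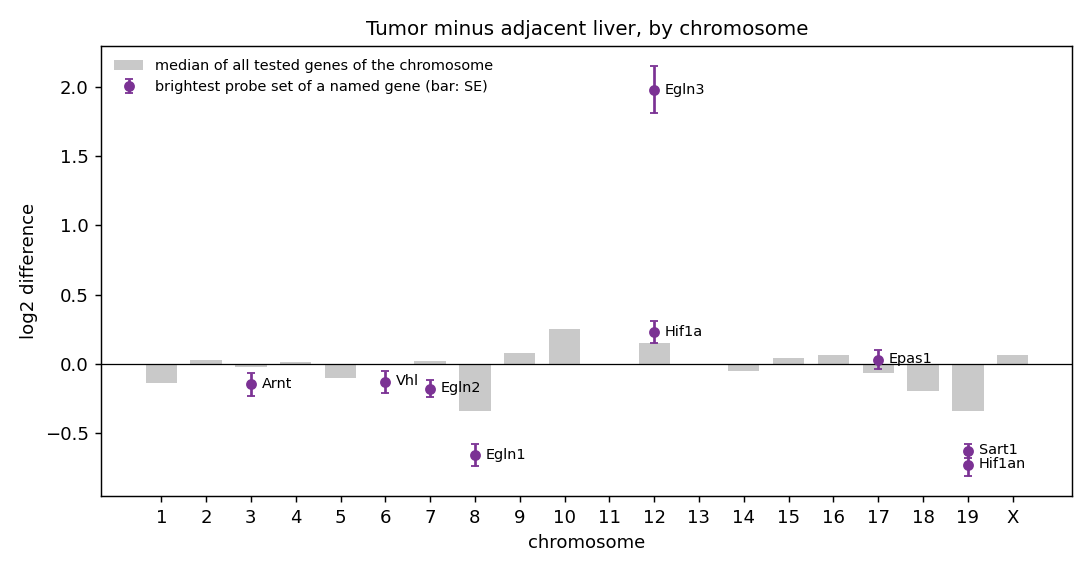
Tumor minus adjacent-labelled liver by chromosome (x axis): grey bars are the median log2 difference (y axis) of all tested genes of a chromosome, 1 probe set per gene, and purple points are the brightest probe sets of the 9 genes with their SE. Chromosomes 8 and 19, which hold Egln1, Sart1 and Hif1an, have the lowest medians, both -0.34.

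Genes that act with these regulators were read from lists, with 1 probe set per gene, beside the shares of all 13893 tested genes, of which 32.9% were higher and 29.8% lower in tumor relative to wild-type liver. The 24 tested targets mainly of HIF-1 went both ways. In tumor 11 were higher and 7 lower than in wild-type liver, with a median of 0.19 against -0.01 over all genes. Hexokinase Hk2 rose to a mean of 7.76 in tumor, against 6.47 in wild-type liver. The glycolytic enzyme Aldoa rose by 1.13 and Pfkfb4, which controls glycolytic flux, by 1.11, whereas the MYC antagonist Mxi1 was at -1.19 (each adjusted p under 0.05 in limma). In adjacent-labelled against wild-type liver 7 were higher and 7 lower, with a median of -0.04. Hk2 stood at 1.28 and the stress gene Ndrg1 at 1.35, but the mTOR inhibitor Ddit4 at -1.42 and Higd1a at -0.97. Over all genes 33.8% were higher and 28.5% lower in that comparison. Against adjacent-labelled liver, tumor had 11 higher and 4 lower of 24, beside 19.8% and 24.7% of all genes, led by Ddit4 at 1.62 and the glucose transporter Slc2a1 at 0.86. Ddit4 thus shared with Egln3 a low level in adjacent-labelled liver, but tumor minus wild-type liver was 0.20 for Ddit4 (adjusted p = 0.117 in limma).

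Of 10 tested genes listed as targets mainly of HIF-2, 6 were higher and 2 lower in tumor and 7 higher and 3 lower in adjacent-labelled liver than in wild-type liver, with medians of 0.90 and 0.53. The cyclin Ccnd1 rose by 2.29 in tumor and 2.57 in adjacent-labelled liver, the matrix protease Mmp14 by 1.52 and 1.43, and the growth factor Tgfa by 1.20 and 0.77. The lipase inhibitor Angptl4 was lower, at -1.54 in tumor and -0.74 in adjacent-labelled liver, as was the insulin signalling adaptor Irs2, at -0.53 and -0.85. Both comparisons share the wild-type arrays. The iron transporter Slc11a2 rose by 1.04 in adjacent-labelled liver but stood at -0.06 in tumor (adjusted p = 0.544 in limma), and tumor minus adjacent-labelled liver was -1.10 (adjusted p = 1.38e-06 in limma). Hilpda, a lipid droplet protein, rose by 1.07 in tumor and by 0.27 in adjacent-labelled liver.

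Of 4 tested relatives of the subunits, 1 was higher and 2 lower in tumor relative to wild-type liver. Ahr, the aryl hydrocarbon receptor that also pairs with Arnt, was at -2.18 in tumor and -2.17 in adjacent-labelled liver relative to wild-type liver. The clock factor Arntl was at -1.90 in tumor and -1.45 in adjacent-labelled liver. Arnt2 was higher in tumor by 0.41 but at -0.22 in adjacent-labelled liver (adjusted p = 0.0255 in limma). Hif3a stood at -0.08 (adjusted p = 0.395 in limma) in tumor. Of 6 tested genes listed with the Vhl ligase, 3 were higher and 1 lower in tumor relative to wild-type liver, and 5 higher and 1 lower in adjacent-labelled liver. Besides the ligase subunits Elob, Eloc, Cul2 and Rbx1 this list holds the VHL-binding prefoldin subunit Vbp1, which rose by 0.70 in tumor, and the cullin modifier Nedd8, at 0.11 in tumor (adjusted p = 0.263 in limma). The scaffold Cul2 was at -0.46 in tumor but was 0.37 higher in adjacent-labelled liver, a difference of -0.83 between the tissues (adjusted p = 1.74e-06 in limma). The adaptor subunits Elob and Eloc rose by 0.42 and 0.30 in tumor.

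Of 17 tested genes that act on HIF alpha stability or synthesis, 5 were higher and 6 lower in tumor relative to wild-type liver, with a median of -0.02. Usp20, a deubiquitinase, rose by 1.77 and Mdm2, the p53 ubiquitin ligase, by 1.44, while the mitochondrial deacetylase Sirt3 was at -1.16 and Rwdd3, which enhances sumoylation, at -1.05. In adjacent-labelled liver Usp20 rose by 1.34, and Os9 and Rwdd3 were both at -0.72. Rwdd3 averaged 4.58 in tumor and 4.91 in adjacent-labelled liver, below the arrays' 40th percentile (5.16 to 5.26), and 5.63 in wild-type liver. Its lower calls therefore rest on a level that was above the filter in wild-type liver alone. Of 9 tested coactivators and related factors, 2 were higher and 2 lower in tumor relative to wild-type liver, and 5 higher and 2 lower in adjacent-labelled liver. The acetyltransferase gene Ep300 rose by 0.78 in tumor and 0.56 in adjacent-labelled liver, and the nuclear receptor coactivator Ncoa1 was at -0.55 and -0.51.

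The Krebs cycle and hydroxyglutarate enzymes, whose metabolites are cosubstrates or inhibitors of the hydroxylases, moved mostly one way. In tumor 0 of 10 were higher and 9 lower than in wild-type liver, with a median of -0.59. The succinate dehydrogenase subunits Sdha and Sdhb were at -0.81 and -0.64, Idh1 at -0.71 and D2hgdh at -0.75. In adjacent-labelled liver 2 were higher and 7 lower, with a median of -0.32, and tumor minus adjacent-labelled liver gave 0 higher and 8 lower, with a median of -0.28. Of 15 tested genes listed with the tri-snRNP, not all of whose products are its stable members, 3 were higher and 1 lower in tumor relative to wild-type liver. Their median was 0.01, and 6 were higher and 2 lower in adjacent-labelled liver. Snrnp200 rose by 0.50 and Eftud2 by 0.44 in tumor, while Prpf8 was at -0.38. Between tumor and adjacent-labelled liver 2 were higher and 4 lower, with a median of 0.03, the lower ones being Txnl4a (-0.46), Prpf8 (-0.34), Prpf38a (-0.25) and Cd2bp2 (-0.16).

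**Figure D5:**
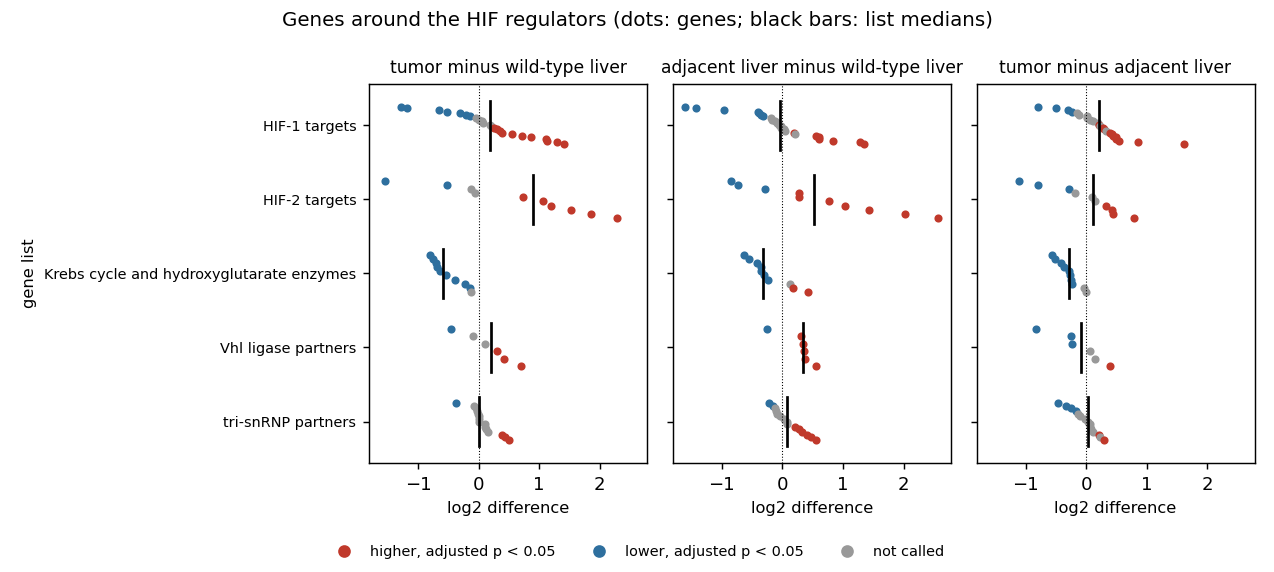
Log2 differences (x axis) of the tested genes of 5 lists (rows) in the 3 comparisons; dots are genes, red and blue where the adjusted p was under 0.05 as higher or lower, and black bars are list medians. The Krebs cycle and hydroxyglutarate list lies mostly left of 0 in tumor against wild-type liver (median -0.59), and the HIF-1 targets spread to both sides (median 0.19).

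The probe sets whose levels ran most like those of Sart1 over the 9 arrays belonged to Gramd3 (Pearson r = 0.997), Pnkd, the pyrimidine-degrading enzyme Dpys, the sulfate-activating enzyme Papss2 and the pyrimidine synthesis enzyme Dhodh (each r = 0.996). Each shared a level in tumor below that of both other groups: Dpys, for example, averaged 9.67 in tumor, 11.56 in adjacent-labelled liver and 11.47 in wild-type liver. Of the 24138 probe sets compared, 436 (1.81%) had r over 0.95, so this pattern was not rare. Nearest to Hif1a were Tpt1 (r = 0.990), the receptor Igf2r (0.989) and the collagen prolyl 3-hydroxylase P3h1 (0.986). Tpt1 hardly moved, with means of 13.92 in tumor, 13.87 in adjacent-labelled liver and 13.79 in wild-type liver. A high r thus did not mean a change of like size. Igf2r averaged 9.16 in tumor, 8.69 in adjacent-labelled liver and 7.74 in wild-type liver. Nearest to Epas1 were the noncoding Pvt1 (r = 0.991), Smim3 (0.990) and the arginine methyltransferase Prmt2 (0.987). The 9 points fall into 3 groups of pieces, and these correlations largely describe the group means.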

How the data were processed

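Total RNA of 9 liver pieces (3 per group, 1 array each) was measured, and the labels' titles gave the groups. The deposited log2 values per probe set are the authors' RMA values. The submitters' processing notes name Expression Console 1.3.1.187 as the software. RMA corrects background, equalises the arrays' distributions and summarises probes, so a shift of most genes would be hidden. The scale was checked: read as powers of 2, the brightest value is 23383, within a 16-bit scanner's range. Raw intensities, detection calls and scan dates were not used here, and 3 arrays per group limit the precision. Of 45101 probe sets, the platform annotation gives 34958 1 symbol, 932 several and 9211 none.

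Probe sets with 1 symbol entered if they exceeded the 40th percentile on 3 or more of 9 arrays (24140). The test was limma 3.58.1 (R 4.3.3): 1 mean per group, all 9 arrays, eBayes, Benjamini-Hochberg adjustment over all of them, called at an adjusted p under 0.05. Lists took the probe set of a gene with the highest mean. Its code was tested on simulated data. The members, lists and alternatives were chosen with earlier results of these data known. All 9 genes and all their probe sets are named, besides the listed genes with the smallest adjusted p (up to 4 per list and comparison), the genes with the highest correlation and the tested neighbours of Sart1. Genes outside this rule, such as Hif3a, Angptl4, Irs2, Krt19, Krt7, Epcam, Rbx1, Alb, Apoa1, Clec4f, Vsig4 and, for some comparisons, Marco, Nedd8, Hilpda, Slc11a2, Prpf38a and Cd2bp2, and Ddit4 for tumor against wild-type liver, were chosen after their values were seen. Pdk1, Vegfa, Car9, Ldha, Lrat and Des were likewise chosen after their values were seen. Pieces of a group came from 1 animal, so p-values measure the spread between pieces. Samples sharing a number did not deviate together (r = -0.12 to 0.13 between groups), and the numbers were not used as pairs. Sequences are from RefSeq tables of GRCm38.p6. Alternatives covered the threshold, filter, probe set rule, normalization, variance model, array weights, the 2 groups alone, a replicate block and each array left out.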

Additional observations from a re-analysis of the deposited data

Results flagged for a closer look

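Egln3 differed between the 2 tissues of the SART1+/- mouse when each was set against the same wild-type pieces: every tumor piece lay above and every adjacent-labelled piece below the wild-type mean at both probe sets. The difference between the tissues, tested in limma, was 1.98 at 1418649_at and 1.77 at 1418648_at on the log2 scale. Hif1an at 1428576_at showed the opposite pattern, with tumor below and adjacent-labelled liver above wild-type liver and a difference between the tissues of -0.73. Both contrasts with wild-type liver share its 3 arrays.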

How the results depend on the processing

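Of the 35 called differences of the 9 genes, 30 kept their call and sign under every alternative other than the 2-fold limit, and the 5 that did not are given with their genes above: Egln2 in 2 comparisons, and Hif1a 1427418_a_at, Arnt 1437042_at and Vhl 1421071_at for tumor against adjacent-labelled liver. With no filter on dim probe sets the calls of Egln2 against wild-type liver (adjusted p = 0.0511) and of that Hif1a and Vhl probe set (0.0536 and 0.0587) were lost in limma. With a limit of at least 2-fold, calls over all probe sets numbered 2901 (tumor against wild-type liver), 2578 (adjacent-labelled against wild-type liver) and 1140 (tumor against adjacent-labelled liver), in place of 14757, 14690 and 10534, and 3, 0 and 2 of the 19 tested probe sets of the 9 genes. With 1 probe set per gene, fewer features were tested (13893), of which 8802, 8749 and 6275 were called in the same order, with 8, 4 and 6 of the 9 genes. With the mean of a gene's probe sets these were 8821, 8783 and 6251, with 8, 4 and 8 genes. The replicate block gave 14750, 14710 and 10495 calls, with 13, 8 and 12 of the 19, and lost the Hif1a 1427418_a_at (adjusted p = 0.0626) and Vhl 1421071_at (adjusted p = 0.0655) calls between tumor and adjacent-labelled liver in limma. It changed no other call. Leaving out each array gave 12 to 13, 8 to 9 and 10 to 14 calls of the 19.

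Over all alternatives, the 2-fold limit included, 1028 values of the 9 genes kept their sign and their side of the threshold, 64 lost the call and 17 gained one, such as Epas1 1435436_at with the mean of probe sets (0.23 in tumor against adjacent-labelled liver, adjusted p = 0.0258 in limma). Signs turned in 19, all of differences that were not called. For adjacent-labelled against wild-type liver, the mean of probe sets gave -0.06 for Sart1, 0.04 for Arnt and 0.07 for Vhl. Cyclic loess gave -0.06 for Sart1 1448658_at, -0.04 for Hif1a 1416035_at, -0.05 for Egln1 1423785_at and -0.03 for Egln2. Median centring gave 0.01 for Vhl 1434708_at, and array weights 0.04 for it and -0.01 for Egln1 1423785_at. With an array left out, the ranges were -0.00 to 0.10 for Hif1a 1416035_at, -0.06 to 0.04 for Vhl 1434708_at, -0.00 to 0.07 for Egln1 1423785_at and -0.01 to 0.04 for Egln2. They were -0.06 to 0.00 for Vhl 1421071_at in tumor against wild-type liver and -0.01 to 0.05 for Epas1 1435436_at in tumor against adjacent-labelled liver. The change of Hif1a minus Epas1 turned to -0.02 with cyclic loess and -0.18 with the mean of probe sets for adjacent-labelled against wild-type liver, where arrays left out gave -0.05 to 0.13, and to -0.07 with the mean of probe sets for tumor against wild-type liver. The cause was not tested.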
